A study of Homo sapiens with 60 samples.

Results

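The genes described here encode the core kinases of the Hippo pathway, their adaptors and activators, and the angiomotins. They were taken by name from the table of all genes and are AMOT, AMOTL1, AMOTL2, LATS1, LATS2, STK3, STK4, SAV1, NF2 and MOB1A, that is 10 of 38342 gene names. The filter on low values left 15866 genes, 9 of these 10 among them, and AMOT did not pass it. The cells were MDA-MB-231, an established triple-negative breast cancer line that is known to carry a truncating mutation in NF2. They were treated with BAY2506856 at 100, 300 or 1000 nM, or with the vehicle DMSO, and the labels give harvests at 1, 3, 6 and 24 h, whereas the series' design text names 24 h only. There were 3 libraries for each dose and 6 DMSO libraries at every time, which makes 60 libraries in 16 groups. What the compound binds is not stated in the labels. They do not say whether replicates were separate cultures, so each p-value measures the spread between these samples, which may be technical.

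In the Hippo pathway the kinases STK3 and STK4 (also called MST2 and MST1), helped by the scaffold SAV1, phosphorylate the kinases LATS1 and LATS2 and their adaptor MOB1A. Active LATS kinases phosphorylate the coactivators YAP1 and TAZ, which are then kept out of the nucleus, where they would otherwise drive transcription with TEAD factors. NF2 (merlin) brings LATS kinases to the membrane, and the angiomotins AMOT, AMOTL1 and AMOTL2 bind YAP1 and hold it at junctions and actin. AMOTL2 and LATS2 are known as transcriptional targets of YAP1 and TAZ, so that they form a negative feedback on the pathway, and NF2 has also been described as such a target.

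Each library held 0.475 M to 86.5 M reads, 11.2 M at the median. The 3 libraries under 2 M reads were replicate 2 of 1000 nM at 3 h, replicate 2 of 300 nM at 24 h, and DMSO replicate 2 at 24 h. From their values, the libraries were of 3 types, on which the labels are silent. A score over 11 pseudogenes, RPL35P4 among them, set the second type apart, and the level of MT-ND6, a mitochondrial message, the third. The first type had 41 libraries in 16 groups. The second had 13 libraries in 11 groups, including 2 of the 3 libraries at 1000 nM at 1 h and at 24 h and 1 of 6 DMSO libraries at each time. The third had 6 DMSO libraries, 3 at 1 h and 3 at 3 h, with 56.9 to 105 FPKM of MT-ND6, against 0.85 to 5.71 FPKM in the first type. Levels of several of the 10 genes differed between the types among DMSO libraries, so values within the first type, or from a fit with a term for each type, are given beside the results they touch. The part of the library type in each result was otherwise not tested. Of 7 markers of the line, all had medians of 1 FPKM or more, led by VIM at 470 FPKM, and 3 of 6 luminal and receptor-positive breast markers did (ERBB2, EPCAM and GATA3 at 8.73, 6.14 and 3.51 FPKM), while ESR1 and PGR had medians of 0. Of 4 leukocyte markers 1 had a median of 1 FPKM or more (CD14, 1.63), as did 1 of 5 fibroblast markers (COL1A2, 3.01) and 0 of 3 endothelial ones. CD3E, ITGAM, CDH5, VWF, TIE1, COL3A1 and DCN had medians of 0.

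Promoters of AMOTL2, LATS2 and AMOTL1 are shown because AMOTL2 and LATS2 were the genes most often lower in treated cells, and AMOTL1 is the close relative of AMOTL2 that moved little. They are RefSeq sequences of build GRCh38.p14, 300 bases each, 250 before and 50 after the annotated start. The deposited values were made on hg19, so the coordinates are not those of the expression table. Capitals mark the TEAD motif GGAATG or its reverse complement CATTCC.
AMOTL2 promoter, chr3:134374398-134374697, minus strand: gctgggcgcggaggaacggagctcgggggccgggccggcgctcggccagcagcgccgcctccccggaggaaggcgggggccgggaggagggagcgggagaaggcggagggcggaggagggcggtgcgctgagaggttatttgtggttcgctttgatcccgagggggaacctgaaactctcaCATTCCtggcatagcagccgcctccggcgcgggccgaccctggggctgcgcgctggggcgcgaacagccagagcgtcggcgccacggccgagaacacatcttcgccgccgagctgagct
LATS2 promoter, chr13:21061537-21061836, minus strand: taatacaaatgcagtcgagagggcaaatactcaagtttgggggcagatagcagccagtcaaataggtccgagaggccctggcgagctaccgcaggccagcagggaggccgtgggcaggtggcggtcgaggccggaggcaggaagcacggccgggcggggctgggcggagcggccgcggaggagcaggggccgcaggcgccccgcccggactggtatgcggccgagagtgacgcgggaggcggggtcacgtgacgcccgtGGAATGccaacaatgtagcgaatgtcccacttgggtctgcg
AMOTL1 promoter, chr11:94768106-94768405, plus strand: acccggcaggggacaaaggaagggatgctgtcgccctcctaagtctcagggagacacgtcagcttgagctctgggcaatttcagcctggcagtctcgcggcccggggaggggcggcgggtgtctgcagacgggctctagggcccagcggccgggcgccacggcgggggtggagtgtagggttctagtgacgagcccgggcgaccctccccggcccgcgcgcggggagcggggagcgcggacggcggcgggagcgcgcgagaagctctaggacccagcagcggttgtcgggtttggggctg
The AMOTL2 promoter held CATTCC with its first base at position -69 from the start, and a second annotated AMOTL2 promoter held no GGAATG. The LATS2 promoter held GGAATG from the base at position 10 of the transcript. Of the 10 genes, 9 had promoters in the table, and no promoter of AMOT, AMOTL1, LATS1, STK4, SAV1, NF2 or MOB1A held this motif on either strand. The motif was present in 14.0% of all 35116 promoters listed, and in a promoter of 16.7% of 27305 genes. The AP-1 motif TGANTCA, which reads the same on both strands, was present in 1 of 2 LATS1 promoters. It was present in 7.71% of all promoters, and in a promoter of 9.37% of genes. STK3 had no entry. These matches describe the letters of the window only.

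The levels of the 10 genes in vehicle cells spanned a wide range. FPKM divides by transcript length, so levels of different genes can be set side by side. At 24 h in DMSO, MOB1A had the highest level at 29.3 ± 2.55 FPKM (SD, n = 6), above AMOTL1 in 6 of 6 libraries. AMOTL1 (18.0 ± 0.659) and AMOTL2 (16.6 ± 2.57 FPKM) followed and their libraries overlapped. SAV1 came next at 10.8 ± 1.27 FPKM, where its libraries overlapped those of AMOTL2 but not of STK4, and STK4 (8.46 ± 0.292) and LATS2 (8.23 ± 1.51 FPKM) overlapped each other below it. LATS1 at 4.25 ± 0.349 and STK3 at 3.75 ± 0.908 FPKM also overlapped. NF2 was low at 0.873 ± 0.15 FPKM. AMOT was close to 0, with 77 reads over all 60 libraries, 0 reads in 24 of them and a highest level of 0.0791 FPKM, and it was not tested. Of 50-base windows of the genes' GENCODE transcripts, 0 to 4.51% were shared with another gene. The highest shares were in SAV1, and in AMOTL2, where 2.22% were shared, all of them with the ribosomal protein pseudogene RPL39P5. Of the 3 angiomotin genes, the line thus expressed AMOTL1 and AMOTL2 at similar levels in DMSO and AMOT at or near 0.

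At 1000 nM and 24 h the order of the other genes was the same, and AMOTL2 stood in the 8th place. It had 3.83 ± 0.788 FPKM at 1000 nM (SD, n = 3), against 16.6 ± 2.57 FPKM in DMSO (SD, n = 6), and overlapped STK3 in treated cells.

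**Figure D1:**
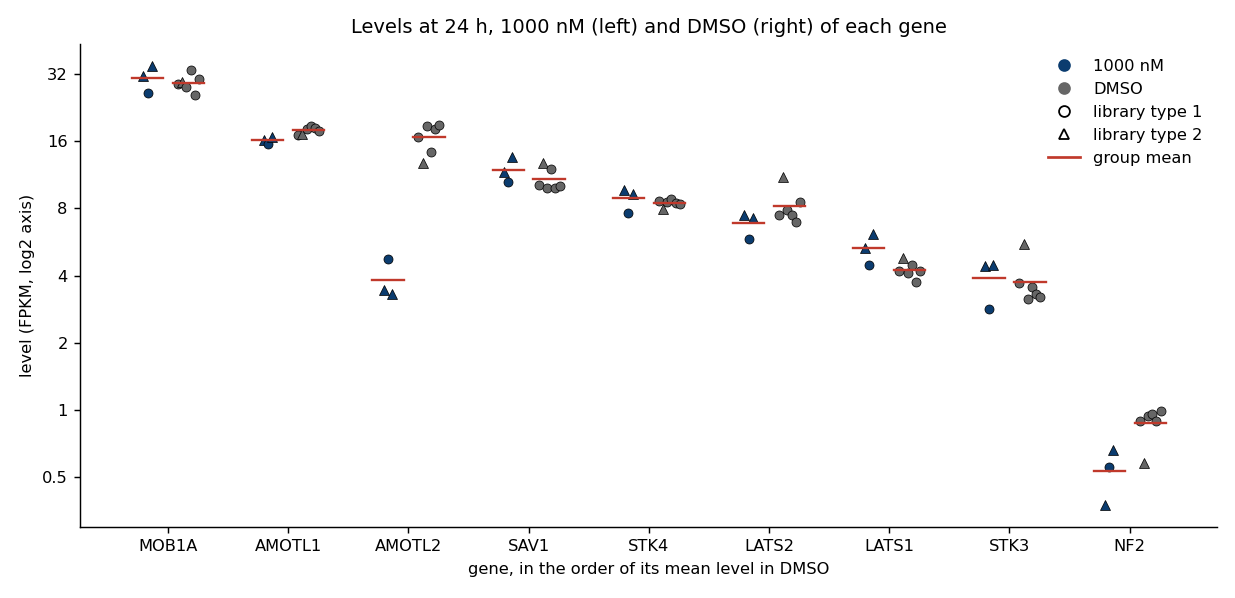
Level of 9 genes in each library at 24 h (FPKM, log2 axis), with 1000 nM on the left and DMSO on the right of each gene, in order of the DMSO mean. Symbols show the library type and red bars the group mean; AMOTL2 is at 3.30 to 4.74 FPKM at 1000 nM, against 12.8 to 19.0 FPKM in DMSO, while MOB1A, SAV1, STK4, LATS1 and STK3 overlap between the groups.

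Across the 12 comparisons of a dose with DMSO of the same time, the genes that were called were AMOTL2, LATS2, NF2 and AMOTL1, and each call was to a lower level in treated cells. Calls are from limma on log2(FPKM + 0.5) over all 60 libraries, with a Benjamini-Hochberg adjusted p under 0.05 over 15866 genes, and log2 changes are treated minus DMSO with limma's standard error. At 1 h, 0 of 9 tested members were called at any dose, as were 0% of all tested genes, and voom called 0. At 100, 300 and 1000 nM, 0, 1 and 5 members had an unadjusted p under 0.05, as had 809, 192 and 1637 of all 15866 genes. At 3 h, 0, 0 and 1 of 9 were lower at 100, 300 and 1000 nM, where 0.0693, 0.101 and 0.107% of all genes were. At 6 h, 2, 3 and 2 of 9 were lower, against 0.655, 1.11 and 1.3% of all genes. At 24 h the counts were 2, 3 and 3 of 9, against 9.2, 14.2 and 15.6% of all genes. The test had 2 sides, and in either direction 19.7, 30.7 and 34.7% of all genes were called at 24 h. Counted so, the members were called at 24 h about as often as all genes. The median log2 change of the 9 was -0.09, -0.10 and 0.05 at 24 h, against 0.05, 0.05 and 0.03 over all tested genes. At 1000 nM it was -0.14 with type terms and -0.25 by voom with type terms (all genes 0.07 and -0.06). STK3, STK4, SAV1, MOB1A and LATS1 had no call in any of the 12. Groups that did not overlap were also counted over all tested genes. At 3 h, 1.97, 2.12 and 0.914% of all genes had every library at 100, 300 and 1000 nM below every DMSO library. These shares were 3.43, 2.77 and 4.06% at 6 h, and 12.1, 10.9 and 10.6% at 24 h. At 1 h and 1000 nM, 0.662% of all genes had every treated library above DMSO.

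**Figure D2:**
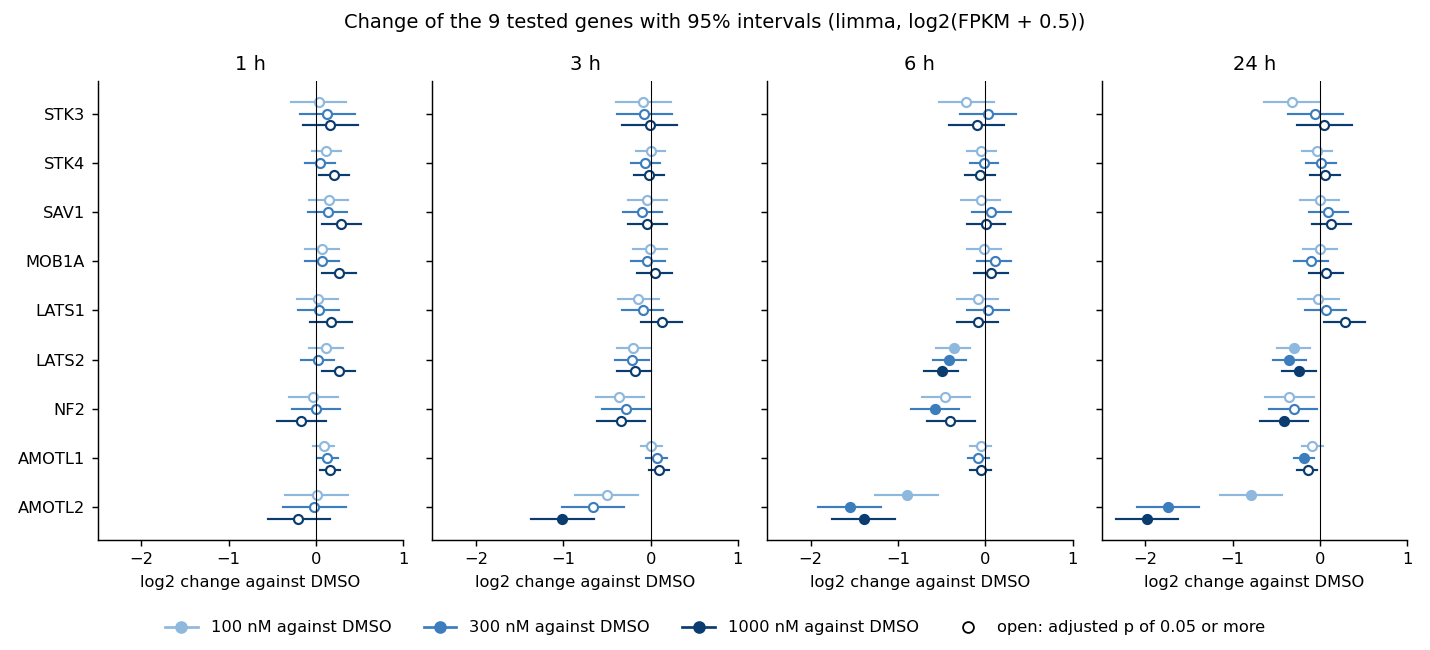
Log2 change against DMSO of the 9 tested genes at each time (limma on log2(FPKM + 0.5)), with 95% intervals, for 100, 300 and 1000 nM from top to bottom within a gene. Filled points have an adjusted p under 0.05; they are AMOTL2 at 1000 nM at 3 h and at all doses at 6 and 24 h, LATS2 at 6 and 24 h, and single doses of NF2 and AMOTL1, all left of 0.

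AMOTL2, an angiomotin that binds YAP1 and junction proteins, had the largest change of the 9 at each dose from 3 h on. At 1 h its levels were 24.1, 22.5 and 20.0 FPKM at 100 nM, 19.2, 20.5 and 26.0 at 300 nM, and 23.6, 17.9 and 16.6 at 1000 nM. DMSO libraries at 1 h had a lowest level of 15.6, a median of 23.4 and a highest of 25.3 FPKM. In bulk RNA, fewer cells of a type and less RNA per cell cannot be told apart, here and in what follows. All groups overlapped at 1 h, and the change at 1000 nM was -0.20 ± 0.18 (adjusted p = 0.573, limma). With type terms it turned to 0.09 ± 0.10 (adjusted p = 0.906), and 2 of the 3 treated libraries are of the second type.

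By 3 h AMOTL2 was at 10.9, 12.2 and 12.1 FPKM at 100 nM, at 10.8, 10.7 and 9.89 at 300 nM, and at 9.88, 5.73 and 9.25 at 1000 nM. DMSO had a lowest, median and highest level of 11.4, 17.9 and 19.6 FPKM. Libraries at 300 and 1000 nM lay below each DMSO library, and those at 100 nM overlapped the lowest one, which is of the second type. Only the change at 1000 nM was called, at -1.01 ± 0.18 (adjusted p = 0.0011, limma). Replicate 2, of the second type and with 1.45 M reads, had 51 AMOTL2 reads. Without that library the change was -0.78 (adjusted p = 0.205, limma). In the first library type alone, which also leaves it out, the change was called at -0.87 ± 0.13 (adjusted p = 0.000777). The changes at 100 and 300 nM were -0.50 and -0.66 (adjusted p = 0.616 and 0.319, limma). With a term for the library type they were -0.55 ± 0.10 and -0.72 ± 0.10 (adjusted p = 0.00656 and 3.86e-05).

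At 6 h AMOTL2 fell at every dose. It had 11.0, 9.86 and 9.47 FPKM at 100 nM, 4.07, 7.77 and 7.61 at 300 nM and 6.66, 7.31 and 7.11 at 1000 nM. DMSO libraries were at 15.4, 18.7 and 25.9 FPKM (lowest, median and highest), above all treated libraries. The changes were -0.90 ± 0.18 at 100 nM, -1.55 ± 0.18 at 300 nM and -1.39 ± 0.18 at 1000 nM, with adjusted p of 0.00212, 1.72e-08 and 2.38e-07 (limma). Voom on the recovered reads gave -0.92, -1.57 and -1.44. The library at 4.07 FPKM, 300 nM replicate 1, is of the second type. With type terms the changes were -0.98, -1.46 and -1.48, and in the first type alone -0.96, -1.33 and -1.45. The larger fall at 300 than at 1000 nM was thus not seen in these fits.

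At 24 h AMOTL2 was lowest. Its levels were 9.84, 8.80 and 9.32 FPKM at 100 nM, 5.50, 3.09 and 5.58 at 300 nM and 3.46, 4.74 and 3.30 at 1000 nM. DMSO had 12.8, 17.5 and 19.0 FPKM (lowest, median and highest), so no treated library reached the lowest DMSO library. Its mean was 0.561, 0.284 and 0.230 times that of DMSO at 100, 300 and 1000 nM, and the log2 changes were -0.79 ± 0.18, -1.74 ± 0.18 and -1.98 ± 0.18 (adjusted p = 0.000836, 4.36e-11 and 6.47e-13, limma). The libraries of the second type were the lowest in their group at 300 and 1000 nM and in DMSO. With type terms the change at 1000 nM was -1.73 ± 0.10 (adjusted p = 1.11e-19, limma). The 1 library of the first type at 1000 nM gave -1.77, with no spread of its own. For AMOTL2, 1000 nM was also lower than 100 nM at 24 h, by -1.19 ± 0.21 (adjusted p = 8.61e-05, limma). All 3 libraries at 100 nM are of the first type. With type terms this step was -0.86 ± 0.11 (adjusted p = 3.82e-07, limma). Within the first type, with 1 library at 1000 nM, it was -0.91.

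**Figure D3:**
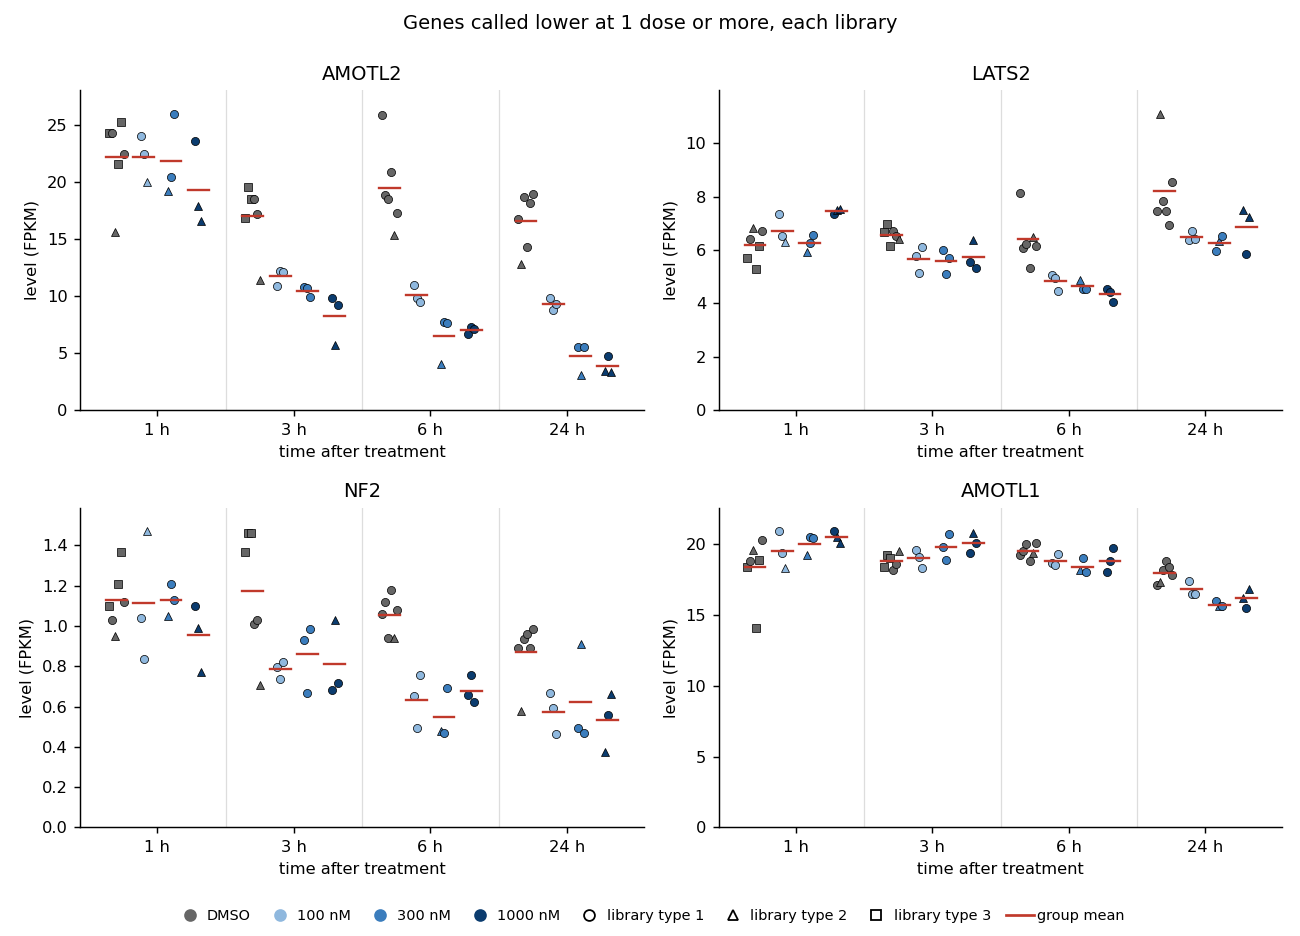
Level (FPKM) in each of 60 libraries of the 4 genes with a call against DMSO, by time and, within a time, DMSO, 100, 300 and 1000 nM from left to right. Symbols show the library type and red bars the group mean. AMOTL2 steps down with dose at 24 h to 3.83 FPKM, LATS2 is lower by similar amounts at all doses at 6 h, NF2 is near 1 FPKM or below, and AMOTL1 stays between 14.1 and 20.9 FPKM.

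The dose and time steps were tested directly. At 1000 against 100 nM, AMOTL2 at 24 h was the 1 member called, where 2.86% of all genes were lower. At 1, 3 and 6 h there was no member call, where 0, 0 and 0.0189% of all genes were lower, and voom called 0. There 0, 1 and 1 members had an unadjusted p under 0.05, as had 974, 615 and 115 of all 15866 genes. For AMOTL2 the step at 3 and 6 h was -0.51 ± 0.21 and -0.49 ± 0.21 (adjusted p = 0.955 and 1, limma). With type terms it was -0.34 and -0.49 (adjusted p = 0.753 and 0.103, limma). The 1000 nM effect was not called as different between successive times for any member in this fit. At each of 3 steps 0 of 9 were called, and 0 by voom. At these steps 3, 1 and 2 members had an unadjusted p under 0.05, as had 790, 1007 and 4172 of all 15866 genes. Of all genes 0.0504, 0.227 and 15.1% were called for the steps from 1 to 3, 3 to 6 and 6 to 24 h. For AMOTL2 these steps were -0.81 ± 0.25, -0.38 ± 0.25 and -0.59 ± 0.25 (adjusted p = 0.616, 0.894 and 0.113). With type terms they were -0.98, -0.58 and -0.25 (adjusted p = 1.47e-05, 0.0329 and 0.178, limma), so the first and the second step were called once the types were in the fit. The step from 6 to 24 h was called for AMOTL2 and LATS1 without 1000 nM 24 h replicate 2 (-0.74 and 0.48, adjusted p = 0.0476 and 0.0491), and for LATS2 without DMSO 24 h replicate 2 (0.35, adjusted p = 0.0306, limma). STK3 at 24 h was called higher at 1000 than at 100 nM without 1000 nM replicate 2 (0.56, adjusted p = 0.0415). Leaving out that library leaves 2 libraries at 1000 nM, both of the second type, while all 3 at 100 nM are of the first. With type terms and all libraries the STK3 step was 0.07 (adjusted p = 0.783), and the steps from 6 to 24 h were 0.23 for LATS1 and 0.20 for LATS2 (adjusted p = 0.258 and 0.262, limma).

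LATS2, which phosphorylates YAP1 and TAZ, was lower at 6 and 24 h by amounts that differed little between doses. At 6 h it had 5.06, 4.97 and 4.47 FPKM at 100 nM, 4.88, 4.55 and 4.54 at 300 nM and 4.53, 4.44 and 4.04 at 1000 nM. DMSO libraries were at 5.33, 6.18 and 8.14 FPKM (lowest, median and highest). Each treated library was thus below each DMSO library. The changes were -0.36 ± 0.10, -0.41 ± 0.10 and -0.50 ± 0.10 (adjusted p = 0.0481, 0.00906 and 0.000571, limma). The call at 1000 nM held when any 1 library was left out, that at 300 nM was lost without 300 nM replicate 2 or 3 (adjusted p = 0.0633 and 0.0664), and that at 100 nM was lost without any 1 of the 3 treated libraries or of 5 DMSO libraries (adjusted p up to 0.479). Within the first library type all 3 doses were called, at -0.36, -0.43 and -0.50 (adjusted p = 0.00903, 0.00415 and 0.000114, limma).

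At 24 h LATS2 was at 6.37, 6.72 and 6.43 FPKM at 100 nM, at 5.97, 6.33 and 6.52 at 300 nM, and at 7.50, 5.86 and 7.23 at 1000 nM. DMSO had 6.93, 7.66 and 11.1 FPKM (lowest, median and highest). The libraries at 100 and 300 nM were below DMSO, and those at 1000 nM overlapped it. The changes were -0.30 ± 0.10, -0.35 ± 0.10 and -0.24 ± 0.10 (adjusted p = 0.0189, 0.00339 and 0.0486, limma). The DMSO library at 11.1 FPKM was replicate 2, with 30 LATS2 reads and 0.475 M reads in all. Without it the change was -0.22 at 100 nM and -0.15 at 1000 nM (adjusted p = 0.0757 and 0.164), and only the call at 300 nM remained. The call at 1000 nM was also lost without 1000 nM replicate 2 or 3 or DMSO replicate 3 or 6 (adjusted p = 0.337, 0.0568, 0.0505 and 0.0784), and that at 100 nM without 100 nM replicate 1 or 3 (adjusted p = 0.0829 and 0.0687). In the first library type 100 and 300 nM were called at -0.22 and -0.27 (adjusted p = 0.041 and 0.0205, limma). The 1 library of this type at 1000 nM gave -0.35, with no spread of its own. LATS2 at 1000 against 100 nM was 0.06 ± 0.11 at 24 h, with a 95% interval of -0.16 to 0.29 (adjusted p = 0.746, limma).

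At earlier times LATS2 was not called. At 1 h the 1000 nM libraries had 7.36, 7.51 and 7.53 FPKM, above the highest DMSO library at 6.82, and the change was 0.26 ± 0.10 (adjusted p = 0.477, limma). In 2 of these 3 libraries, which are of the second type, LATS2 was at 7.51 and 7.53 FPKM, and with type terms the change was 0.18 (adjusted p = 0.739). At 3 h the libraries at 100 and 300 nM, at 5.11 to 6.10 FPKM, lay below the lowest DMSO library at 6.15. The changes at 3 h were -0.20, -0.21 and -0.18 (adjusted p = 0.828, 0.795 and 0.704, limma).

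NF2, the membrane-linked activator of LATS kinases, was measured on few reads, between 2 and 475 per library. At 6 h it had 0.654, 0.495 and 0.755 FPKM at 100 nM, 0.477, 0.468 and 0.692 at 300 nM and 0.658, 0.756 and 0.625 at 1000 nM. DMSO libraries were at 0.938, 1.07 and 1.18 FPKM (lowest, median and highest), above all 9 treated libraries. Only the change at 300 nM was called, at -0.58 ± 0.14 (adjusted p = 0.011, limma), and the changes at 100 and 1000 nM were -0.46 and -0.40 (adjusted p = 0.131 and 0.173). The call was lost without 300 nM replicate 1 or 2 (adjusted p = 0.113 and 0.107). The pseudocount of 0.5 FPKM is close to the level of NF2 and reduces its fold change. Voom, which has no such pseudocount, gave -0.73, -0.93 and -0.62 (adjusted p = 0.00177, 0.000638 and 0.0252).

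At 24 h NF2 was at 0.669, 0.593 and 0.462 FPKM at 100 nM, at 0.495, 0.909 and 0.471 at 300 nM, and at 0.376, 0.558 and 0.661 at 1000 nM. DMSO had 0.576, 0.914 and 0.986 FPKM (lowest, median and highest), and all 3 doses overlapped it. The change at 1000 nM was called, at -0.41 ± 0.14 (adjusted p = 0.0147, limma), but not without its replicate 1 (-0.30, adjusted p = 0.155). Replicates 1 and 3 at 1000 nM, both of the second type, had only 6 and 12 NF2 reads. The changes at 100 and 300 nM were -0.35 and -0.30 (adjusted p = 0.0644 and 0.0912). The lowest DMSO library had 2 NF2 reads, and without it both of these doses were called, at -0.42 and -0.37 (adjusted p = 0.0245 and 0.0324). The high 300 nM library, replicate 2, had 12 NF2 reads, and without it the change at 300 nM was -0.47 (adjusted p = 0.014). By voom the changes were -0.77, -0.97 and -0.82 at 100, 300 and 1000 nM (adjusted p = 0.000964, 1.83e-07 and 0.000675). NF2 at 1 and 3 h was not called, with changes of -0.03, 0.00 and -0.17 at 1 h and of -0.36, -0.28 and -0.34 at 3 h. With type terms they were 0.13, 0.16 and 0.00 at 1 h and -0.21, -0.14 and -0.18 at 3 h. Among DMSO libraries at 3 h, NF2 averaged 1.43 FPKM in the third type, against 1.02 in the first.

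AMOTL1, the close relative of AMOTL2, moved little. At 24 h it had 17.4, 16.5 and 16.5 FPKM at 100 nM, 16.0, 15.6 and 15.6 at 300 nM and 16.2, 15.5 and 16.8 at 1000 nM. The DMSO libraries were at 17.1, 18.0 and 18.8 FPKM (lowest, median and highest), above all libraries at 300 and 1000 nM. Of all tested genes, 10.9 and 10.6% were likewise lower in every library at these doses. The change of AMOTL1 at 300 nM was called at -0.18 ± 0.06 (adjusted p = 0.0131, limma), and its mean fell by 12.4%. At 1000 nM it was -0.14 ± 0.06 (adjusted p = 0.0523), and with type terms it was called at the same size (adjusted p = 0.0384), as it was without DMSO replicate 1 or 2 (-0.16 and -0.15, adjusted p = 0.0428 and 0.0407). Before 24 h AMOTL1 was not called, with changes between -0.08 and 0.16.

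The kinases STK3 and STK4, the scaffold SAV1, the adaptor MOB1A and the kinase LATS1 had changes between -0.32 and 0.29 over the 12 comparisons, with no call. At 1 h and 1000 nM STK4, SAV1 and MOB1A, with LATS2 and AMOTL1, had an unadjusted p under 0.05. Their changes of 0.21, 0.29 and 0.27 were 0.18, 0.09 and 0.12 with type terms. STK4 at 24 h had 9.71, 7.66 and 9.32 FPKM at 1000 nM, against 7.97, 8.49 and 8.82 in DMSO (lowest, median and highest), and its change was 0.06 ± 0.08 (95% interval -0.11 to 0.23). LATS1 at 24 h had 5.31, 4.48 and 6.17 FPKM at 1000 nM, against 3.75, 4.21 and 4.78 in DMSO. Its change of 0.29 ± 0.12 did not pass the threshold (adjusted p = 0.0539, limma), and the 2 higher treated libraries are of the second type. The 1 treated library of the first type gave 0.10, and with type terms the change was 0.18 (adjusted p = 0.154). It was called without 1000 nM replicate 2, the library of the first type (0.39, adjusted p = 0.0175) or without DMSO replicate 2 (0.32, adjusted p = 0.0343). STK3 at 24 h had 4.42, 2.83 and 4.48 FPKM at 1000 nM, against 3.15, 3.44 and 5.55 in DMSO, and 2.64, 2.77 and 3.17 at 100 nM. Its highest library at 300 nM, at 1000 nM and in DMSO was each time of the second type. With type terms STK3 was called lower at 100 nM at 24 h, at -0.24 ± 0.08 (adjusted p = 0.021, limma), and in the first type it was called at 100 and 300 nM (-0.21 and -0.24, adjusted p = 0.0303 and 0.0259). With type terms STK3 was -0.13 and -0.17 at 300 and 1000 nM (adjusted p = 0.202 and 0.0962). MOB1A at 24 h had 31.5, 26.2 and 34.8 FPKM at 1000 nM, against 25.7, 29.1 and 33.3 in DMSO, and SAV1 had 11.6, 10.5 and 13.6, against 9.87, 10.1 and 12.8. Both overlapped DMSO at every dose and time. At 1 h and 1000 nM the overlap rested on the DMSO library of the second type, with MOB1A at 33.5 and SAV1 at 14.4 FPKM. The treated libraries, 2 of them of that type, had 31.2 to 32.3 and 12.2 to 13.0 FPKM. The next highest DMSO libraries had 27.7 and 10.9 FPKM.

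**Figure D4:**
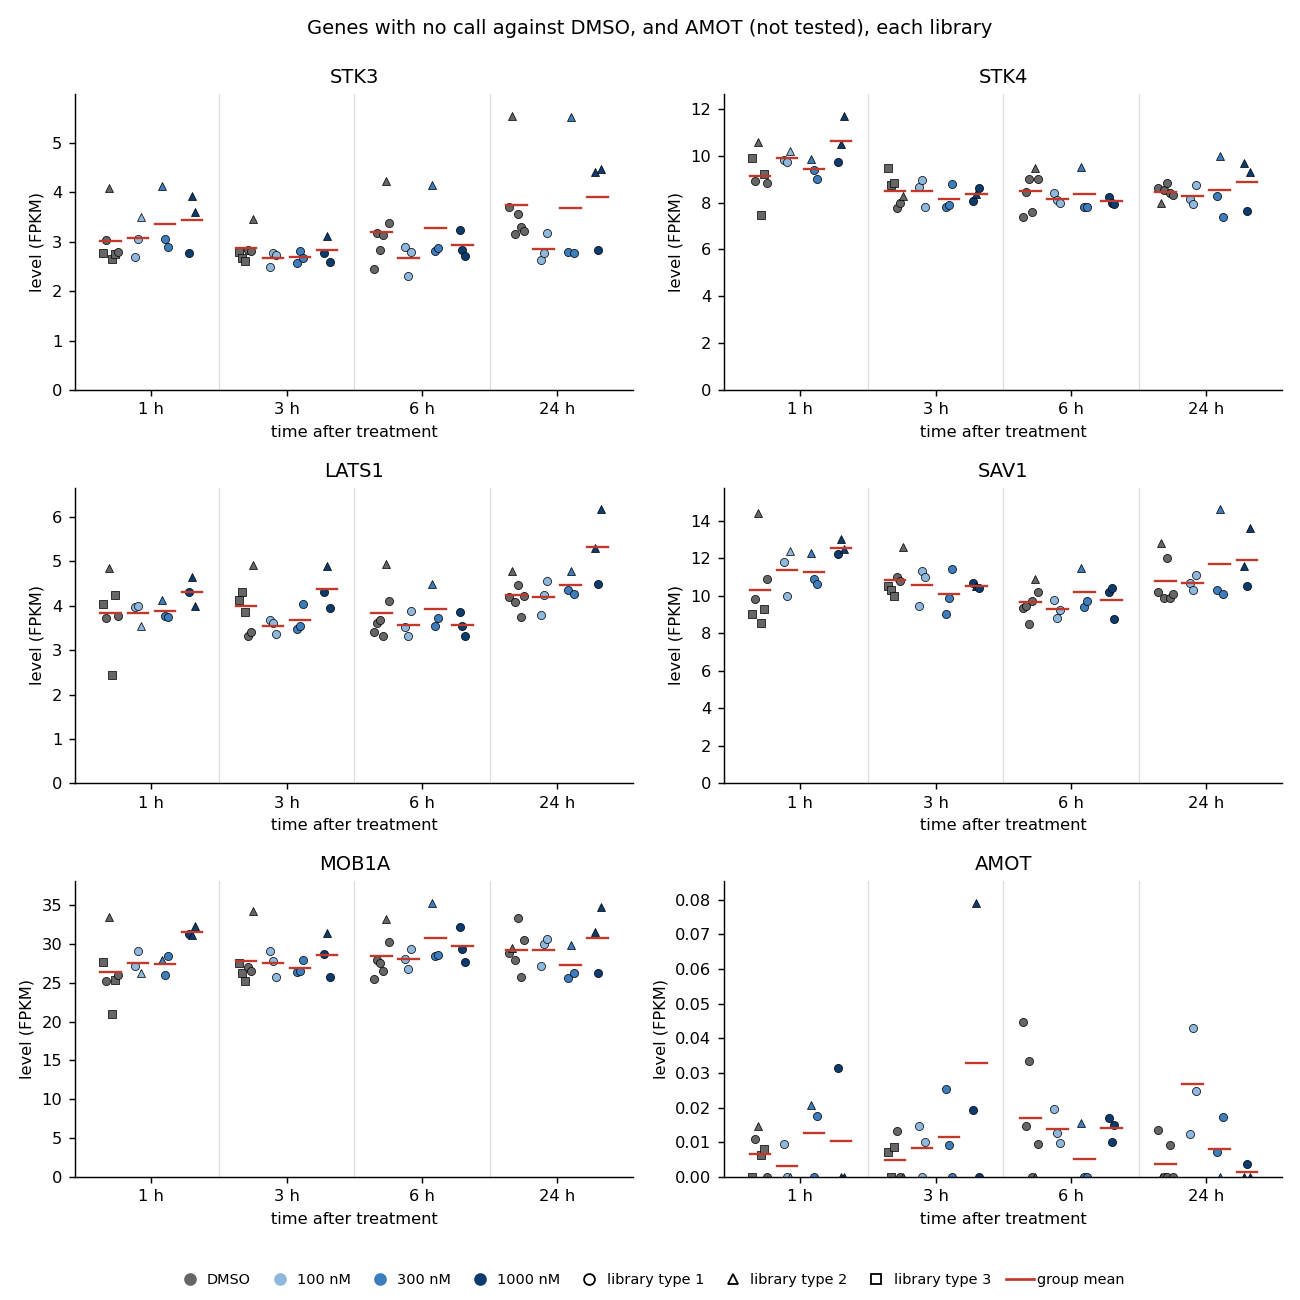
Level (FPKM) in each library of STK3, STK4, LATS1, SAV1, MOB1A and AMOT, by time and, within a time, DMSO, 100, 300 and 1000 nM from left to right. Symbols show the library type and red bars the group mean. The DMSO library of the second type is the highest of its time for STK3, LATS1 and SAV1, and AMOT is below 0.08 FPKM in all libraries.

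Among DMSO libraries alone, the library of the second type had the highest STK3 and LATS1 and the lowest AMOTL2 of its 6 at each of the 4 times. STK3 was at 4.10, 3.47, 4.23 and 5.55 FPKM in these libraries at 1, 3, 6 and 24 h, where the DMSO libraries of the first type averaged 2.91, 2.82, 2.99 and 3.39. AMOTL2 was at 15.6, 11.4, 15.4 and 12.8 FPKM, where the first type averaged 23.4, 17.9, 20.3 and 17.4. For SAV1 the second type was highest at 1, 3, 6 and 24 h, at 14.4, 12.6, 10.9 and 12.8 FPKM.

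Ratios within a library do not depend on the scaling between libraries, and they describe how paralogs moved against each other without a test. The log2 ratio of AMOTL2 over AMOTL1 at 24 h was -0.85 ± 0.05 at 100 nM, -1.79 ± 0.48 at 300 nM and -2.10 ± 0.34 at 1000 nM (SD, n = 3 each), and -0.13 ± 0.23 in DMSO (SD, n = 6). At 1000 nM AMOTL2 was thus at 0.234 of AMOTL1, whereas both were near equal in DMSO at 0.917. This ratio differed between library types. At 1000 nM the log2 ratio was -2.23 and -2.35 in the libraries of the second type and -1.71 in that of the first. In DMSO at 24 h the library of the second type was lowest, at -0.44. The log2 ratio of LATS2 over LATS1 at 24 h was 0.63 ± 0.13, 0.49 ± 0.11 and 0.37 ± 0.14 at 100, 300 and 1000 nM, and 0.94 ± 0.17 in DMSO. LATS2 stayed above LATS1 in each of the 60 libraries. STK3 stayed below STK4 in each of the 60 libraries, with mean log2 ratios of -1.54 ± 0.08, -1.28 ± 0.37 and -1.21 ± 0.20 at the 3 doses at 24 h, and -1.20 ± 0.34 in DMSO.

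**Figure D5:**
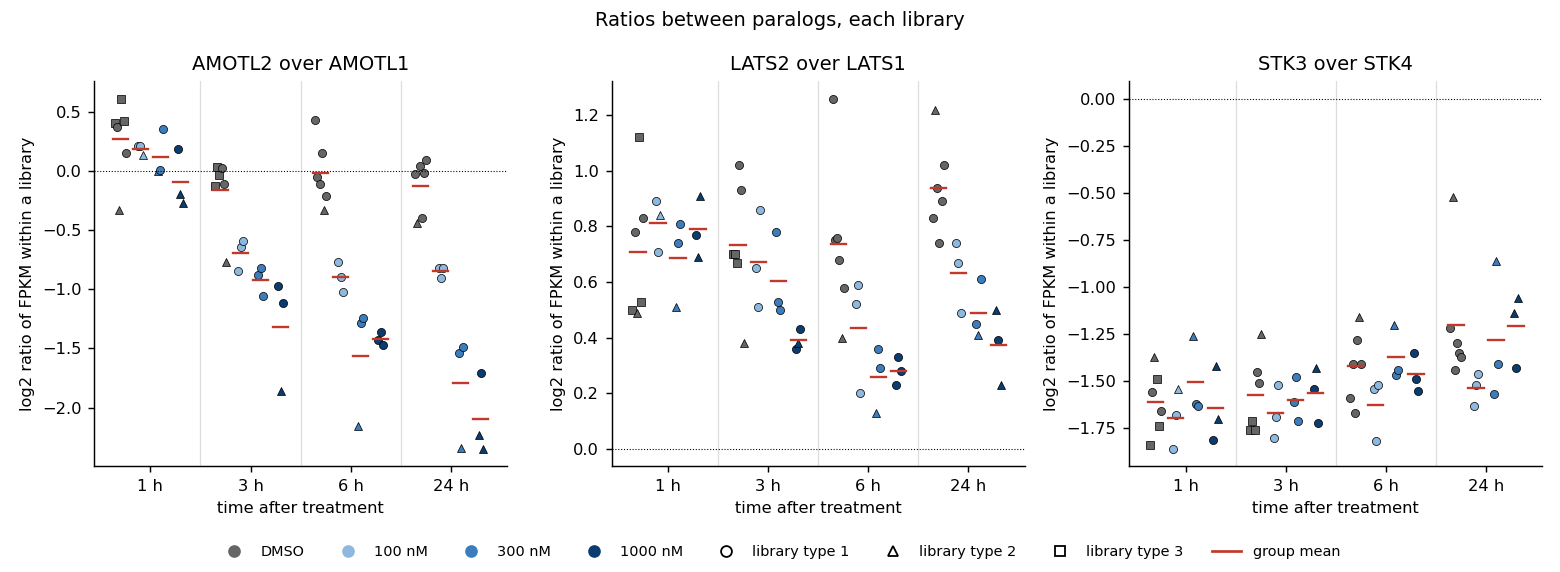
Log2 ratio of FPKM between paralogs within each library, by time and, within a time, DMSO, 100, 300 and 1000 nM from left to right, with symbols for the library type and red bars for the group mean. AMOTL2 over AMOTL1 goes down to a mean of -2.10 at 1000 nM at 24 h, LATS2 over LATS1 stays above 0, and STK3 over STK4 stays below 0.

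Vehicle cells also changed over the hours. In DMSO at 24 h against 1 h, LATS2 rose by 0.37 ± 0.08 on the log2 scale (adjusted p = 0.000395, limma), with 8.23 ± 1.51 FPKM at 24 h, against 6.18 ± 0.59 FPKM at 1 h (SD, n = 6 each). AMOTL2 fell by 0.41 ± 0.15 (adjusted p = 0.0432, limma), with 16.6 ± 2.57 FPKM at 24 h, against 22.3 ± 3.56 FPKM at 1 h. These were the 2 members called, 1 higher and 1 lower, where 9.78% of all genes were higher and 8.45% lower. The AMOTL2 call was lost when any 1 of 8 DMSO libraries was left out (adjusted p up to 0.134). Without DMSO 1 h replicate 3, STK3 and MOB1A were also called, at 0.34 and 0.22 (adjusted p = 0.0497 and 0.0284). Within the first library type LATS2 was 0.21 ± 0.09 and AMOTL2 -0.42 ± 0.11 (adjusted p = 0.125 and 0.00526, limma). At 3 and 6 h against 1 h, 0 of 9 members were called, against 0.536 and 2.48% of all genes, and voom called 0. An unadjusted p under 0.05 was found for 1 and 0 members, and for 960 and 1906 of all 15866 genes. With type terms AMOTL2 in DMSO was called lower at 3 h and at 24 h, by -0.38 each (adjusted p = 0.00236 and 0.000937, limma). At 24 h LATS2 and STK3 were then called higher, by 0.34 and 0.25 (adjusted p = 0.0013 and 0.014). In the first type AMOTL2 at 3 h was -0.38 ± 0.13 (adjusted p = 0.121).

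Genes whose pattern over the 16 group means was most like that of AMOTL2 were sought among 8234 genes with a mean of at least 5 FPKM. They were MYC (r = 0.979), CYR61 (0.976), EDN1 (0.965), CTGF (0.962) and NUAK1 (0.961), where r is Pearson's r of group means of log2(FPKM + 0.5), which share libraries and carry no p. CYR61 and CTGF, the YAP1 and TAZ targets used most often as readouts, had 12.2 ± 2.17 and 6.18 ± 0.714 FPKM at 1000 nM at 24 h (SD, n = 3), against 224 ± 10.2 and 83.7 ± 7.67 FPKM in DMSO (SD, n = 6). LATS2 had r = 0.40 with AMOTL2 and 0.269 with CTGF. The genes most like LATS2 were NMD3 (0.924), IFIT5 (0.894), TJP1 (0.874), MAML2 (0.872) and APPL2 (0.862). Within the first library type, 3 of these 5 genes for AMOTL2 and 3 of 5 for LATS2 were again among the 5 most alike. Among the 9 tested members, the highest r was 0.90, between NF2 and AMOTL2.

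Other genes of the pathway were counted in 4 lists. At 24 h and 1000 nM, where 19.1% of all genes were higher and 15.6% lower, 7 of 21 tested genes for further Hippo kinases, scaffolds and activators were higher and 4 lower. Their median log2 change was 0.27, against 0.03 over all genes. WWC1 (KIBRA, a scaffold that activates LATS kinases) fell by 1.28 ± 0.09 and FRMD6 (a FERM-domain protein upstream of the pathway) by 0.98 ± 0.10, and RASSF3 rose by 1.12 ± 0.11 on the log2 scale (adjusted p = 2.12e-16, 2.24e-11 and 4.95e-12, limma). WWC1 had 2.68 ± 0.0731 FPKM at 1000 nM, against 7.27 ± 0.711 FPKM in DMSO. At 6 h WWC1 and FRMD6 were the 2 of 21 called at 1000 nM, both lower, where 1.3% of all genes were lower.

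Of 20 tested genes of the STRIPAK phosphatase complex and inhibitors of LATS, 4 rose and 3 fell at 1000 nM and 24 h. These counts were near the shares of all genes, 19.1% higher and 15.6% lower. The list's median log2 change was 0.13, against 0.03 over all genes. With type terms the median was 0.02, and voom with type terms called 2 higher and 5 lower with a median of -0.02, so the balance and the sign depend on the fit. AJUBA, a LIM protein that binds LATS kinases and restrains them, fell by 1.80 ± 0.12 to 6.85 ± 0.86 FPKM at 1000 nM, against 25.1 ± 2.89 FPKM in DMSO (adjusted p = 2.2e-17, limma). The kinase NUAK1 fell by 0.96 ± 0.07, and the striatin STRN3 rose by 0.53 ± 0.13 (adjusted p = 6.01e-17 and 0.00129). The rise of STRN3 was 0.38 ± 0.10 with type terms and 0.18 ± 0.10 by voom with type terms (adjusted p = 0.00177 and 0.143).

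Of 13 tested ubiquitin ligases and tankyrases that act on angiomotins or LATS kinases, 6 rose and 1 fell at 1000 nM and 24 h. Of all genes 19.1% were higher and 15.6% lower. The list's median log2 change was 0.27, against 0.03 over all genes. With type terms 5 rose and 2 fell (median 0.17), and by voom with type terms 3 rose and 2 fell (median 0.11). The ligase WWP1 rose by 0.67 ± 0.12 and the tankyrase TNKS2 by 0.43 ± 0.13, and the ligase NEDD4L fell by 0.42 ± 0.08 (adjusted p = 1.39e-05, 0.00813 and 6.36e-05, limma). TNKS2 was 0.19 ± 0.09 by voom with type terms (adjusted p = 0.0804). Of 13 tested junction and polarity genes 1 was higher and 1 lower, against the same shares of all genes. Their median was 0.11, which turned to -0.02 with type terms and -0.10 by voom with type terms. The higher one was INADL (0.60 ± 0.10, adjusted p = 5.92e-06, limma). With type terms, where 47.5% of all genes were called at 1000 nM and 24 h, the 4 lists held 10, 7, 5 and 3 higher and 4, 4, 2 and 3 lower genes in the same order.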

How the data were processed

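Polyadenylated RNA was sequenced with single reads from a stranded library kit, per the labels' protocols. Per the submitters' processing notes the tools were STAR 2.4.2a, featureCounts 1.4.6-p2 (Subread) and DESeq2, with build hg19. The annotation release, and whether reads were counted by strand, are not given here by the labels or notes. Values were deposited as log2(FPKM + 1), made by the authors from FPKM, which divides reads by transcript length and library size. These log2 values were turned back to FPKM. Whole reads were recovered from the deposited values: 100% of 1304094 values above 0 were within 0.01 read of a whole number, which gave the depth of each library.

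Groups were tested with limma 3.58.1 in R 4.3.3 (trend and robust) on log2(FPKM + 0.5), with 16 group means over 60 libraries and 44 residual degrees of freedom. This scale understates the change of low genes. Genes needed at least 1 FPKM in at least 3 libraries, and p-values were adjusted within each of 22 comparisons over 15866 genes at a threshold of 0.05. The planned unit was FPKM, so only the conversion was added. The code was tested on simulated data. Alternatives were other pseudocounts, no filter, other scaling, array weights, voom on recovered reads, type terms, fewer libraries and each replicate left out; voom with type terms was chosen after seeing the data.

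The 10 genes and all lists were chosen with earlier results of these data known. Besides these genes, the text names up to 3 genes per list with the largest called change at 1000 nM and 24 h, and the 5 genes most like AMOTL2 or LATS2. Of the listed genes, MST4 and PECAM1 were not analysed here, and 1 called gene of the junction and polarity list is not reported here.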

Additional observations from a re-analysis of the deposited data

Results flagged for a closer look

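In each DMSO group of 6 libraries, the highest or the lowest library was examined for a gap to its nearest neighbour that took more than 0.625 of the whole range of the group (Dixon's critical value for 6). Of 40 groups examined, 7 were beyond it, where chance gives about 1 in 20.

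Of the 7, 6 were libraries of the second type. STK3 was at 4.1 FPKM in DMSO 1 h replicate 3 (nearest library 3.03), at 3.47 FPKM in DMSO 3 h replicate 6 (nearest 2.84) and at 5.55 FPKM in DMSO 24 h replicate 2 (nearest 3.7). The depths of these libraries were 30.81, 2.367 and 0.475 M reads. In DMSO 3 h replicate 6, AMOTL2 was also low at 11.4 FPKM (nearest 16.9) and MOB1A high at 34.2 FPKM (nearest 27.6). NF2 in DMSO 24 h replicate 2 was at 0.576 FPKM (nearest 0.89), which rests on 2 reads. The one flagged library of the third type was DMSO 1 h replicate 4, with AMOTL1 at 14.1 FPKM (nearest 18.4) and a depth of 18.45 M reads.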

How the results depend on the processing

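AMOTL2 at 6 and 24 h was lower at every dose with adjusted p under 0.05 under each alternative tried. Values below are counts of the 9 tested genes called, each beside the reported count. The share of all genes called can also change with the setting. It is given below only for some comparisons, in fits with type terms. A count without its share does not show whether the members gained more calls than all genes did. Array weights, whose estimate did not converge, called 6 (reported 0) at 1000 nM 1 h, 3 at 100 nM (0), 300 nM (0) and 1000 nM (1) at 3 h, and 5, 7 and 6 (2, 3 and 3) at 24 h. They also called 2, 1 and 4 (0, 0 and 1) for 1000 against 100 nM at 1, 6 and 24 h, 5, 1 and 5 (0 each) for the steps in time, and 1 (0) in DMSO at 3 and at 6 h. The first library type alone gave 1 (0) at 300 nM 3 h, 5 (2) and 5 (3) at 100 and 300 nM 24 h, 1 (2) in DMSO at 24 h, and 3 of 5 most alike genes for AMOTL2 and for LATS2. There the log2 ratio of AMOTL2 over AMOTL1 differed by -1.65 (-1.97) at 24 h and that of LATS2 over LATS1 by -0.58 (-0.34) at 3 h, 1000 nM minus DMSO. Type terms gave 1 (0) at 100 and 300 nM 3 h, 4 (2) at 100 nM 24 h, 1 (0) for the first and second step and 1 (0) in DMSO at 3 h. At 100 and 300 nM 3 h they called 0.0819 and 0.107% of all genes, against 0.0693 and 0.126% as reported. At 100 nM 24 h they called 30.6% of all genes, against 19.7% as reported. In the lists they gave 5 (2) Hippo genes at 6 h, 11 (7) STRIPAK genes at 24 h, and 1 (0) and 6 (2) polarity genes at 6 and 24 h. Voom gave 1 (0) at 300 nM 3 h. With type terms, voom gave 1 (0) at 100 and 300 nM 3 h, 4, 7 and 5 (2, 3 and 3) at 24 h, 1 (0) for 1000 against 100 nM at 6 h, 1 (0) for each step, and 1 and 2 (0) in DMSO at 3 and 6 h. At 3 h this fit called 0.0945 and 0.132% of all genes at 100 and 300 nM. At 24 h it called 34.0, 55.8 and 47.7% of all genes at 100, 300 and 1000 nM. The reported shares at 24 h were 19.7, 30.7 and 34.7%, so calls rose over all genes as well. The lists by voom with type terms had 6 (2) Hippo and 4 (2) STRIPAK genes at 6 h, and 1 (0) and 6 (2) polarity genes at 6 and 24 h. With only the groups compared in the fit, and so fewer samples, the counts were 0 (1) at 1000 nM 3 h, 1 at each dose at 6 and 24 h, 0 (1) for 1000 against 100 nM at 24 h and 0 (2) in DMSO at 24 h. Without a filter 100 nM 6 h and DMSO 24 h had 1 (2), with a pseudocount of 0.1 DMSO 24 h had 1 (2), and with a pseudocount of 1, 100 nM 6 h had 1 (2). Without the 3 libraries under 2 M reads the counts were 0 (1) at 1000 nM 3 h, 2 (0) for the last step and 1 (2) in DMSO at 24 h. Leaving out each replicate gave 1 to 2 at 100 nM at 6 and 24 h, and 0 to 1 at 1000 nM 3 h. It gave 1 to 3 at 300 nM 6 h and 1 to 2 for 1000 against 100 nM at 24 h. For the last step it gave 0 to 2, and in DMSO at 24 h 1 to 4. Not every smaller move of a count is listed. Calls at 24 h also changed for NF2 at 300 nM, and for NF2, AMOTL1, LATS1 and LATS2 at 1000 nM, as given above. The sign turned and the turned value was called for STK4 at 300 nM 24 h, at -0.16 with array weights and -0.18 by voom with type terms (reported 0.01), and for STK3 at 1000 nM 24 h, at -0.28 by the last (0.05). Except where fewer samples or genes entered, the cause was not tested. Of 2178 single-gene values under settings other than leaving out a replicate, 25 lost a call and 98 gained one without a change of sign. The sign turned in 153, of which 0 were called as reported, 3 were called under the setting and 150 in neither; leaving out a replicate turned 88 of 1998, with 0 called in either. No paired analysis was possible because the titles number all libraries in one run and groups share no replicate numbers. Depth limits NF2 most, with 2 to 475 reads per library.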
